A study of Mus musculus with 12 samples.

Results

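Transcripts of 4 Foxo factors (Foxo1, Foxo3, Foxo4 and Foxo6) and 6 Krüppel-like factors (Klf2, Klf4, Klf6, Klf9, Klf10 and Klf15) were followed in cultured adult mouse neural stem cells (NSCs). The 10 genes were chosen by symbol, as transcription factors linked to stem cell quiescence, out of 17365 genes in the count table. Earlier results of these data were known when they were chosen. Cells came from the subventricular zone of wild-type mice aged 6 to 8 weeks, as 2 lines, ANS4 (strain MF1) and BL6 (strain C57BL/6), used below passage 10. Cells were seeded sparsely and kept for 3 days in 1 of 3 conditions. EGF/FGF cells received EGF and FGF2, BMP cells received BMP4, and BMP/FGF cells received BMP4 with FGF2, each factor at 10 ng/ml. EGF with FGF2 keeps NSCs dividing, and the study used BMP4 as a model of dormant and BMP4 with FGF2 as a model of primed quiescence. Each condition had 4 RNA-seq libraries, 2 of each line, with 18069052 to 19451818 estimated counts a library. Because each line is 1 culture line, replicates measure the spread between cultures of a line and not between mice.

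Foxo proteins are forkhead transcription factors that act at the end of insulin and growth factor signalling. AKT phosphorylates them, which holds them in the cytoplasm bound to 14-3-3 proteins, and when AKT activity drops they enter the nucleus and turn on genes of cell cycle arrest, oxidative stress defence and autophagy. In adult NSCs, loss of Foxo factors is known to exhaust the stem cell pool. Krüppel-like factors bind GC-rich and CACCC-type DNA through zinc fingers, and several of them restrain division, differentiation or growth factor responses. What was measured here is the level of their transcripts, which says nothing of where the proteins were in the cell or how they were phosphorylated.

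The promoters of 4 members are shown as the members whose windows held a forkhead or MEF2 core, or several E-boxes. RefSeq (GRCm38.p6) gave the bases from 250 before to 50 after the transcription start, for 7 of the 10 members (Foxo1, Foxo3, Klf2, Klf4, Klf6, Klf9 and Klf15). Motifs were searched on both strands, and positions count from the start. Capitals mark a MEF2 core (CTA and TAG with any 4 bases between) in Klf2 (plus strand, chr8:72318812-72319111), and CACGTG, an E-box, in Klf15 (plus strand, chr6:90462326-90462625). In Klf4 (minus strand, chr4:55532426-55532725) they mark an E-box and the forkhead core ATAAACA read on the opposite strand, and in Klf9 (plus strand, chr19:23140976-23141275) the forkhead core GTAAACA that Foxo factors prefer.
Klf2: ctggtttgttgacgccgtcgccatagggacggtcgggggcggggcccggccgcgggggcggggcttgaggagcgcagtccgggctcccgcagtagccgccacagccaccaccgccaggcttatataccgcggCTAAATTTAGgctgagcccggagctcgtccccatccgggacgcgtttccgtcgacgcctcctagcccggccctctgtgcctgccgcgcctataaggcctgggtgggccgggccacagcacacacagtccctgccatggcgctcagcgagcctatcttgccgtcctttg
Klf4: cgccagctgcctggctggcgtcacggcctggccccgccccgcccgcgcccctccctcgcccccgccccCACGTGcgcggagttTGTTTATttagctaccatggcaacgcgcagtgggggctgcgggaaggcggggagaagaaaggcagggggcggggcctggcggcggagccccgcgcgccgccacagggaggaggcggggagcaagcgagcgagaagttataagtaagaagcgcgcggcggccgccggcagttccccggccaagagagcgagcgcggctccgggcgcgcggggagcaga
Klf9: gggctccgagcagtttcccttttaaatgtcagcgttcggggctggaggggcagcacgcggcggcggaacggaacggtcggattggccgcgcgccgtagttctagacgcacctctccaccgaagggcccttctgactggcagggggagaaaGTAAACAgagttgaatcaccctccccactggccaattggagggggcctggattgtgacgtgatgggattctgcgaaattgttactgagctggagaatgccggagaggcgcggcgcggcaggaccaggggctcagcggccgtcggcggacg
Klf15: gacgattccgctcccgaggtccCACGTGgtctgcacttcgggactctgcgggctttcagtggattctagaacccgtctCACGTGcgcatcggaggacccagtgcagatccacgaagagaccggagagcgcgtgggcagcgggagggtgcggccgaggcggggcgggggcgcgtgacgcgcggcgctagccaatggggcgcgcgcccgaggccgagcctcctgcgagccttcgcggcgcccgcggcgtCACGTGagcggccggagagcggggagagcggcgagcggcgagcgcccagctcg

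The MEF2 core of Klf2 lay at -118, and 3.69% of the 32851 RefSeq promoters held such a core. The forkhead core of Klf9 lay at -100 and that of Klf4 at -167, where 3.65% of promoters held GTAAACA and 4.6% held ATAAACA. Klf15 held 3 E-boxes, at -228, -172 and -3, whereas Klf4 and Klf6 held 1 each, at -182 and -43. At least 1 CACGTG was found in 7.15% of promoters and at least 3 in 0.0883%, which is 29 promoters. The GC box GGGCGG, in 35.7% of promoters, was present in 6 of the 7 (not in Klf9), and CACCC, in 57.5%, in Klf2, Klf9 and Klf15. Neither the cyclic AMP element TGACGTCA (1.79% of promoters) nor the glucocorticoid receptor core (GNACA and TGTNC with any 3 bases between, 0.475%) was in any of the 7 windows. No match overlapped a match to another of these motifs, and the 7 promoters were 61.3 to 75.0% G or C against a median of 52.7% over all promoters. A match is a run of letters and not a measured binding site.

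All 10 members passed the filter on low counts, among 13312 genes tested. Levels are given in CPM, a gene's counts scaled to a common library total after TMM normalization, and 1 count was worth 0.0514 to 0.0553 CPM. Fold changes are log2 values from edgeR's quasi-likelihood fit with condition and line as terms, given with their standard error (SE), and a gene was called at a Benjamini-Hochberg adjusted p (FDR) under 0.05 over all tested genes. The 3 contrasts share libraries, so their values stand side by side and are not independent. BMP against EGF/FGF adds BMP4 and withdraws EGF and FGF2, and BMP/FGF against EGF/FGF adds BMP4 and withdraws EGF. In both of these contrasts the addition and the withdrawal cannot be told apart. In bulk RNA, fewer cells of a type and less RNA per cell cannot be told apart.

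BMP4 was accompanied by higher Foxo1, Foxo3, Foxo4, Foxo6, Klf2, Klf9 and Klf15 and by lower Klf4, Klf6 and Klf10 than EGF/FGF, so that 10 of 10 members were called (7 higher, 3 lower). Of all tested genes 79.6% were called in this contrast, 40.8% higher and 38.8% lower, so being called was common. The members' median log2 fold change was 0.94 against 0.0192 over all tested genes, and their median size without sign was 1.25 against 0.61. In BMP/FGF against EGF/FGF, 8 of 10 were called (6 higher, 2 lower) against 78.9% of all genes, and Foxo6 and Klf6 were not. There the members' median was 0.73 against 0.0216, and their median size 0.90 against 0.59. Between the quiescent conditions, BMP/FGF against BMP, 7 of 10 were called (Klf6, Klf9 and Klf10 higher, Foxo1, Foxo3, Foxo6 and Klf2 lower) against 41.4% of all genes, with a median of -0.0808 against -0.00355 and a median size of 0.42 against 0.20. The study's own limit on size, a log2 fold change past 1.5, was passed by Klf2 and Klf10 in BMP against EGF/FGF (2 of 10, with 17.8% of all genes), by Klf10 in BMP/FGF against EGF/FGF (1 of 10, with 16.7%) and by 0 of 10 in BMP/FGF against BMP (1.59%).

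**Figure D1:**
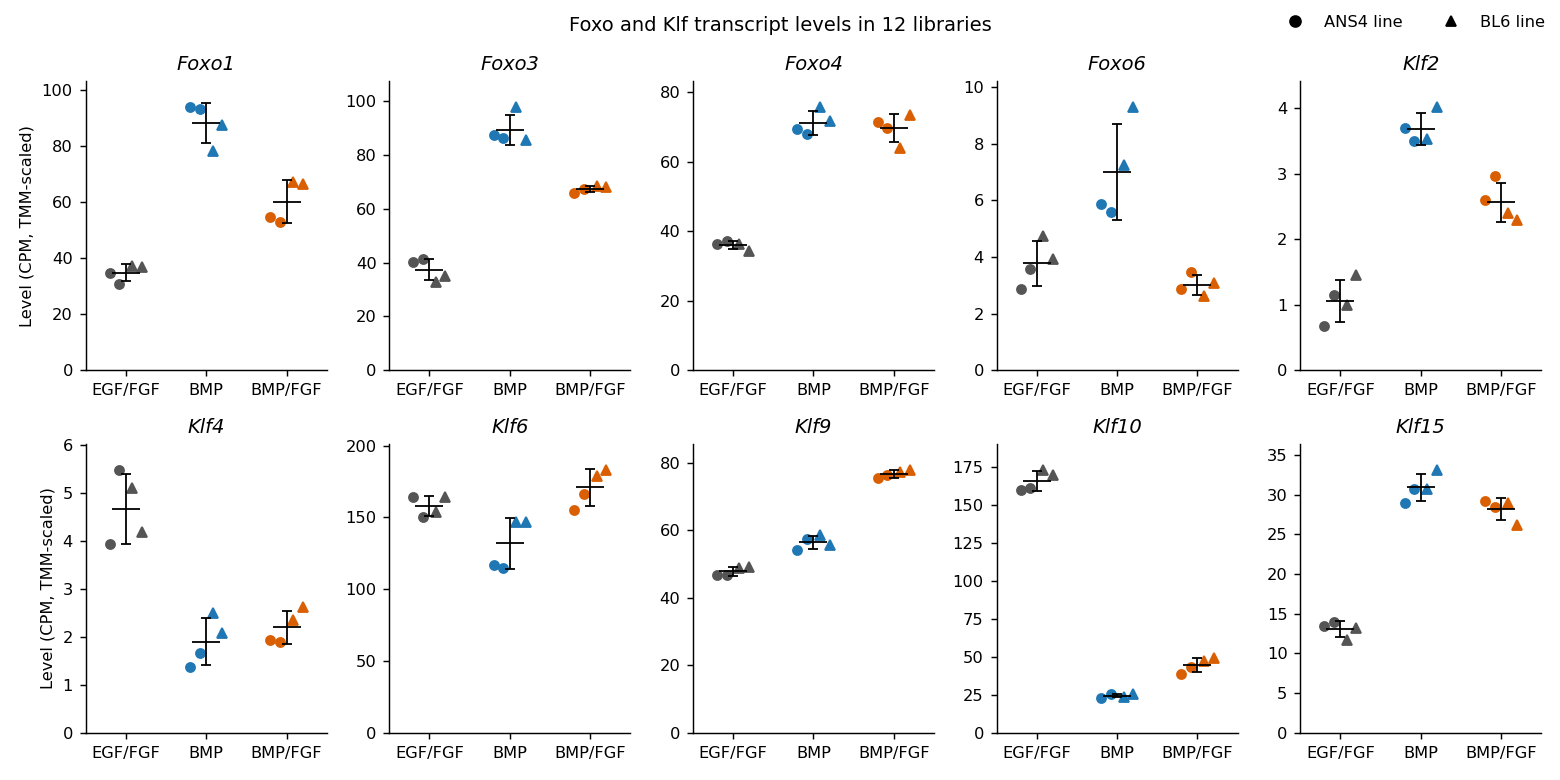
Level of each member in CPM (linear axes from 0) in the 12 libraries by condition, with circles for ANS4, triangles for BL6 and a bar for the mean ± SD of 4 libraries. Klf10 spans 160 to 173 CPM with EGF/FGF and 23.2 to 25.7 with BMP, whereas Foxo1, Foxo3, Foxo4 and Klf15 lie higher in every BMP and BMP/FGF library than in any EGF/FGF library.

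Foxo1 (ENSMUSG00000044167, plus strand, chr3:52268336-52353221, GRCm38) drives cell cycle arrest and metabolic genes when insulin signalling is low. In EGF/FGF it measured 34.5 and 30.8 CPM in ANS4 and 37.0 and 36.9 in BL6. In BMP it measured 93.7 and 93.1 CPM in ANS4 and 78.3 and 87.5 in BL6. In BMP/FGF it measured 54.5 and 52.7 CPM in ANS4 and 67.0 and 66.2 in BL6. The 3 conditions did not overlap, with BMP highest and BMP/FGF between. Foxo1 was 2.54-fold higher in BMP than in EGF/FGF (log2 1.34 ± 0.0862 SE, FDR 9.6e-11, edgeR), 1.72-fold higher in BMP/FGF (0.79 ± 0.0867, FDR 1.79e-07), and 1.47-fold lower in BMP/FGF than in BMP (-0.56 ± 0.0838, FDR 4.71e-05). Its locus overlaps an antisense gene, Gm20402, and an unconfirmed same-strand transcript, Gm38034, and whether the counting used strand is not given in the sources used here.

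Foxo3 (ENSMUSG00000048756, minus strand, chr10:42181841-42276755) is the Foxo factor best known from NSC maintenance. Its EGF/FGF levels were 40.2 and 41.4 CPM in ANS4 and 33.0 and 35.1 in BL6. Its BMP levels were 87.4 and 86.5 CPM in ANS4 and 97.8 and 85.7 in BL6, and its BMP/FGF levels were 65.9, 67.5, 68.7 and 68.0 CPM in the same order. As for Foxo1, BMP was highest, BMP/FGF lay between, and no libraries of different conditions overlapped. The rise over EGF/FGF was 2.39-fold in BMP (log2 1.26 ± 0.0733 SE, FDR 2.6e-11, edgeR) and 1.8-fold in BMP/FGF (0.85 ± 0.0736, FDR 6.56e-09), and BMP/FGF was 1.32-fold below BMP (-0.41 ± 0.0711, FDR 0.000216).

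Foxo4 (ENSMUSG00000042903, plus strand, chrX:101254528-101260873), a further AKT-controlled member of the family, separated quiescent from dividing cultures but not the quiescent conditions from each other. It measured 36.4, 37.1, 36.2 and 34.3 CPM in EGF/FGF (ANS4, ANS4, BL6, BL6). It measured 69.6, 67.9, 75.7 and 71.8 CPM in BMP and 71.5, 69.7, 64.1 and 73.6 CPM in BMP/FGF. The quiescent conditions overlapped each other and lay above every EGF/FGF library. The log2 fold change was 0.98 ± 0.0637 SE in BMP (FDR 1.09e-10, edgeR) and 0.95 ± 0.0638 in BMP/FGF (FDR 1.89e-10). Between BMP/FGF and BMP it was -0.031, with a 95% interval of -0.161 to 0.0992 (FDR 0.72).

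Foxo6 (ENSMUSG00000052135, minus strand, chr4:120267079-120287349), which is expressed mainly in brain and known from memory consolidation, was high in BMP alone. It measured 2.85, 3.56, 4.73 and 3.92 CPM in EGF/FGF (ANS4, ANS4, BL6, BL6), 5.85, 5.59, 7.25 and 9.28 in BMP and 2.85, 3.45, 2.63 and 3.07 in BMP/FGF. These levels rest on 47 to 178 counts a library. BMP lay above the other conditions without overlap, and the EGF/FGF and BMP/FGF libraries overlapped. Foxo6 was 1.85-fold higher in BMP than in EGF/FGF (log2 0.89 ± 0.155 SE, FDR 4.52e-05, edgeR) and 2.3-fold lower in BMP/FGF than in BMP (-1.20 ± 0.162, FDR 1.66e-05), the largest log2 difference among the members in that contrast. BMP/FGF against EGF/FGF gave -0.31 ± 0.172 (FDR 0.106), which was called in the BL6 libraries alone (-0.62, FDR 0.0185) and without the second ANS4 BMP/FGF library (-0.45, FDR 0.0274).

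The summed level of the 6 neuron markers, like Foxo6, was highest in BMP, but unlike Foxo6 it also stood above its EGF/FGF level in BMP/FGF. This sum was 13.3 to 18.1 CPM in EGF/FGF and 94.0 to 103 CPM in BMP/FGF. Its BMP level was 302 and 308 CPM in ANS4 and 602 and 611 in BL6, the line in which BMP Foxo6 was also higher. Foxo6 was higher in BL6 in EGF/FGF too (mean 4.33 against 3.21 CPM), where the neuron sum was 13.3 and 18.1 CPM in BL6 and 15.1 and 16 in ANS4. The Foxo6 change from EGF/FGF to BMP was not called different between lines (BL6 minus ANS4 0.098 ± 0.262 SE, FDR 0.867, edgeR interaction). Dcx (mean 280 CPM in BMP) and Tubb3 (165 CPM), markers of young neurons, made up most of the neuron marker sum in BMP. Rbfox3, the marker of mature neurons, was at 0.119 CPM in BMP and Stmn2 at 0.319 CPM. The remaining markers were also highest in BMP. Snap25 averaged 2.3 CPM in EGF/FGF, 8.06 in BMP and 3.85 in BMP/FGF, and Syt1 0.0518, 3.27 and 0.672 CPM. At 3 counts or fewer in every library stood 2 of the 6 markers in EGF/FGF, 0 in BMP and 1 in BMP/FGF. The part of these cells in the Foxo6 levels was not tested.

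Klf2 (ENSMUSG00000055148, plus strand, chr8:72319033-72321656), which keeps resting T cells quiescent and is induced in endothelium through ERK5 and MEF2, was the member with the largest rise in BMP by the edgeR fit. It measured 0.673, 1.14, 0.988 and 1.45 CPM in EGF/FGF (ANS4, ANS4, BL6, BL6), 3.7, 3.49, 3.52 and 4.01 in BMP and 2.59, 2.96, 2.4 and 2.29 in BMP/FGF. No conditions overlapped, but the EGF/FGF levels rest on only 13 to 28 counts a library. Klf2 was 3.45-fold higher in BMP than in EGF/FGF (log2 1.79 ± 0.2 SE, FDR 2.01e-07, edgeR) and 2.41-fold higher in BMP/FGF (1.27 ± 0.21, FDR 2.58e-05). With limma-trend on the deposited rlog values its log2 rise in BMP was 1.17, below Foxo1 (1.27) and Foxo3 (1.18) and short of the study's limit of 1.5. BMP/FGF was 1.43-fold below BMP (-0.52 ± 0.177, FDR 0.0253). That last call was lost in the ANS4 libraries alone (-0.37, FDR 0.217) and without BL6 BMP replicate 2 (-0.48, FDR 0.0612), BL6 BMP/FGF replicate 1 (-0.49, FDR 0.0659) or BL6 BMP/FGF replicate 2 (-0.47, FDR 0.0763). Endothelial markers, of which 6 of 8 were in the table, went the other way in sum, with summed levels that ran between 39.2 and 47.4 CPM in EGF/FGF, between 5.58 and 9.57 in BMP and between 15.0 and 19.0 in BMP/FGF. Flt1 made up most of that sum (means of 39.7, 4.81 and 14.9 CPM), and Pecam1 averaged 0.194 to 0.371 CPM. Kdr was highest in BMP by its mean (1.71, 3.16 and 1.69 CPM), as Klf2 was.

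Klf4 (ENSMUSG00000003032, minus strand, chr4:55527143-55532466), one of the factors used to reprogram cells to pluripotency, was lower in both quiescent conditions. It measured 3.93 and 5.48 CPM in ANS4 and 5.1 and 4.18 in BL6 in EGF/FGF. In BMP it measured 1.38, 1.66, 2.49 and 2.08 CPM, and in BMP/FGF 1.94, 1.89, 2.35 and 2.62 CPM, in the same order of lines. Every EGF/FGF library lay above every other library, and BMP and BMP/FGF overlapped. The fall was 2.47-fold in BMP (log2 -1.30 ± 0.177 SE, FDR 2.32e-06, edgeR) and 2.14-fold in BMP/FGF (-1.10 ± 0.173, FDR 1.55e-05). The difference between the quiescent conditions was 0.21 with a 95% interval of -0.205 to 0.619 (FDR 0.422), on 25 to 48 counts a library.

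Klf6 (ENSMUSG00000000078, plus strand, chr13:5861482-5870394), a growth-restraining factor induced after injury, had the smallest span of the 10 relative to its level. In EGF/FGF it measured 164 and 150 CPM in ANS4 and 154 and 164 in BL6. In BMP it measured 117 and 115 CPM in ANS4 and 147 and 147 in BL6, and in BMP/FGF 155, 166, 179 and 183 CPM. BMP lay below both other conditions without overlap, although the BL6 BMP libraries (147) came close to the lowest EGF/FGF library (150), and EGF/FGF overlapped BMP/FGF. Klf6 was 1.21-fold lower in BMP than in EGF/FGF (log2 -0.27 ± 0.0668 SE, FDR 0.00114, edgeR), a call lost in the BL6 libraries alone (-0.13, FDR 0.115). It was 1.3-fold higher in BMP/FGF than in BMP (0.38 ± 0.0668, FDR 0.000218). Against EGF/FGF, BMP/FGF gave 0.11 ± 0.0665 (FDR 0.148), which was called in BL6 alone (0.17, FDR 0.04) and without the first ANS4 EGF/FGF library (0.16, FDR 0.0411).

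Klf9 (ENSMUSG00000033863, plus strand, chr19:23141226-23168134), a thyroid hormone and glucocorticoid target that slows division in neural cells, rose in steps and was highest in BMP/FGF. It measured 46.7, 46.6, 48.9 and 49.0 CPM in EGF/FGF (ANS4, ANS4, BL6, BL6). It measured 54.1, 57.4, 58.5 and 55.5 CPM in BMP and 75.4, 76.3, 77.1 and 77.8 CPM in BMP/FGF. The conditions did not overlap, and the 4 BMP/FGF libraries lay close together. Over EGF/FGF the rise was 1.18-fold in BMP (log2 0.24 ± 0.0541 SE, FDR 0.000595, edgeR) and 1.6-fold in BMP/FGF (0.68 ± 0.0537, FDR 1.82e-09), and BMP/FGF exceeded BMP 1.36-fold (0.44 ± 0.0533, FDR 4.66e-06).

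Klf10 (ENSMUSG00000037465, minus strand, chr15:38291463-38300706), named TIEG1 as an early gene induced by TGF-beta, showed the largest change of the 10. It measured 160 and 161 CPM in ANS4 and 173 and 170 in BL6 in EGF/FGF, and 23.2, 25.7, 23.8 and 25.5 CPM in BMP. In BMP/FGF it measured 38.9 and 43.3 CPM in ANS4 and 47.6 and 49.3 in BL6. The conditions stood far apart, with BMP lowest. Klf10 was 6.73-fold lower in BMP than in EGF/FGF (log2 -2.75 ± 0.067 SE, FDR 3.47e-16, edgeR), rank 734 of all tested genes by size, and 3.7-fold lower in BMP/FGF (-1.89 ± 0.0638, FDR 1.73e-14). With FGF2 beside BMP4 it was 1.82-fold higher than with BMP4 (0.86 ± 0.0673, FDR 3.35e-08), still well below EGF/FGF.

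Klf15 (ENSMUSG00000030087, plus strand, chr6:90462576-90475238), a glucocorticoid-induced regulator of glucose, lipid and amino acid metabolism, behaved like Foxo4 in its levels. In EGF/FGF it measured 13.5, 14, 11.7 and 13.2 CPM (ANS4, ANS4, BL6, BL6). In BMP it measured 28.9, 30.7, 30.7 and 33.1 CPM, and in BMP/FGF 29.2, 28.4, 29.0 and 26.2 CPM. BMP and BMP/FGF overlapped, and both lay above EGF/FGF. Its log2 fold change over EGF/FGF was 1.24 ± 0.0796 SE in BMP (FDR 1.01e-10, edgeR) and 1.11 ± 0.0799 in BMP/FGF (FDR 5.52e-10). Between BMP/FGF and BMP it was -0.13, with a 95% interval of -0.289 to 0.0279 (FDR 0.178).

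**Figure D2:**
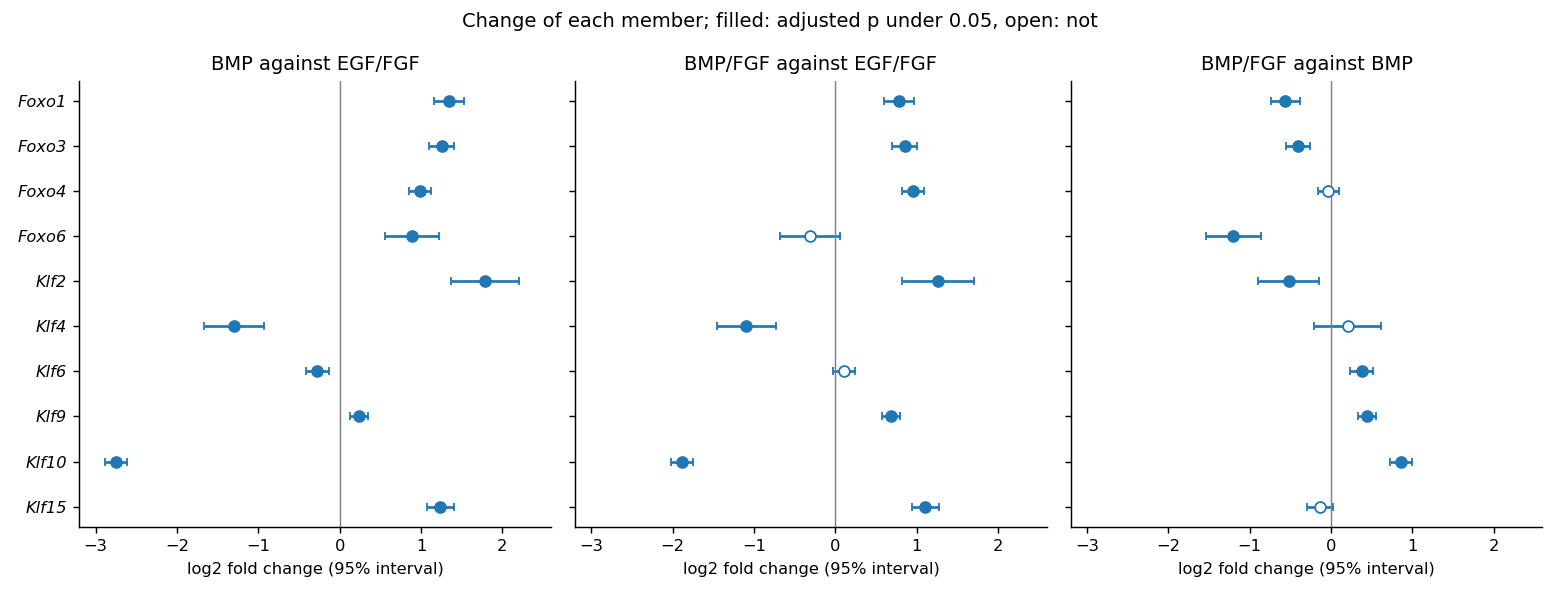
Log2 fold change of each member with its 95% interval in the 3 contrasts (linear axis, edgeR, 12 libraries), filled where the adjusted p is under 0.05 and open where it is not. All 10 are filled in BMP against EGF/FGF, from -2.75 for Klf10 to 1.79 for Klf2, and Foxo4, Klf4 and Klf15 are open in BMP/FGF against BMP.

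Libraries of the compared conditions did not overlap in level for 10 of 10 members in BMP against EGF/FGF (71.1% of all tested genes), 8 of 10 in BMP/FGF against EGF/FGF (75.8%) and 7 of 10 in BMP/FGF against BMP (35.6%). These were the called members in each contrast. An exact two-sided permutation test on log2 CPM, which leaves the lines out of account, gives p = 0.0286 for any such separation, the smallest that 4 against 4 libraries allow, so it adds nothing to the lack of overlap. The other 5 pairs of member and contrast gave exact p values of 0.0857 (Klf15), 0.371 (Klf4) and 0.543 (Foxo4) in BMP/FGF against BMP, and 0.114 (Klf6) and 0.143 (Foxo6) in BMP/FGF against EGF/FGF.

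To set genes beside each other, levels were divided by the length of the longest coding transcript (GENCODE vM21) in kb. This assumes that the longest form is the one expressed, which was not measured. In EGF/FGF, Klf10 stood first at 54.5 ± 2.13 CPM per kb (SD, n = 4), followed by Klf6 at 37.4 ± 1.68. In BMP the first place went to Klf6 (31.1 ± 4.24 CPM per kb), then Foxo4 (22.5 ± 1.07), and Klf10 fell to the seventh place at 8.07 ± 0.407. Foxo3 (12.5 to 14.3 CPM per kb), Klf9 (12.1 to 13) and Klf15 (11.6 to 13.3) overlapped there and cannot be ordered. In BMP/FGF, Klf6 (40.4 ± 3.02 CPM per kb) and Foxo4 (22.1 ± 1.29) led again, and Klf9 (16.8 to 17.3) lay above Klf10 (12.8 to 16.2).

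At the low end, Klf2 had the lowest level per kb in EGF/FGF (0.575 ± 0.175 CPM per kb), whereas Klf4 had the lowest in BMP (0.628 ± 0.16) and BMP/FGF (0.726 ± 0.115). Klf4 (1.3 to 1.81 CPM per kb) and Foxo6 (1.09 to 1.81) overlapped in EGF/FGF, and Klf2 (1.24 to 1.6) and Foxo6 (1.01 to 1.32) overlapped in BMP/FGF. Summed per kb, the 4 Foxo members came to 22.3 ± 0.41 CPM per kb in EGF/FGF, 48.4 ± 1.32 in BMP and 40.0 ± 1.37 in BMP/FGF. The 6 Klf members came to 110.0 ± 2.7, 66.8 ± 5.19 and 85.7 ± 4.43 CPM per kb. From EGF/FGF to BMP the Foxo sum was thus higher and the Klf sum lower in every library. The Klf members did not move together. From EGF/FGF to BMP, Klf10 fell from 54.5 to 8.07 CPM per kb, Klf6 from 37.4 to 31.1 and Klf4 from 1.54 to 0.628. Klf9 rose from 10.7 to 12.6, Klf15 from 5.28 to 12.4 and Klf2 from 0.575 to 1.99. Klf10 held 49.6 ± 1.18% of the Klf sum in EGF/FGF, 12.1 ± 0.986% in BMP and 17.1 ± 0.924% in BMP/FGF. Foxo4 held the largest share of the Foxo sum in all 3 conditions (51.0 ± 0.771, 46.5 ± 0.947 and 55.1 ± 2.24%).

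**Figure D3:**
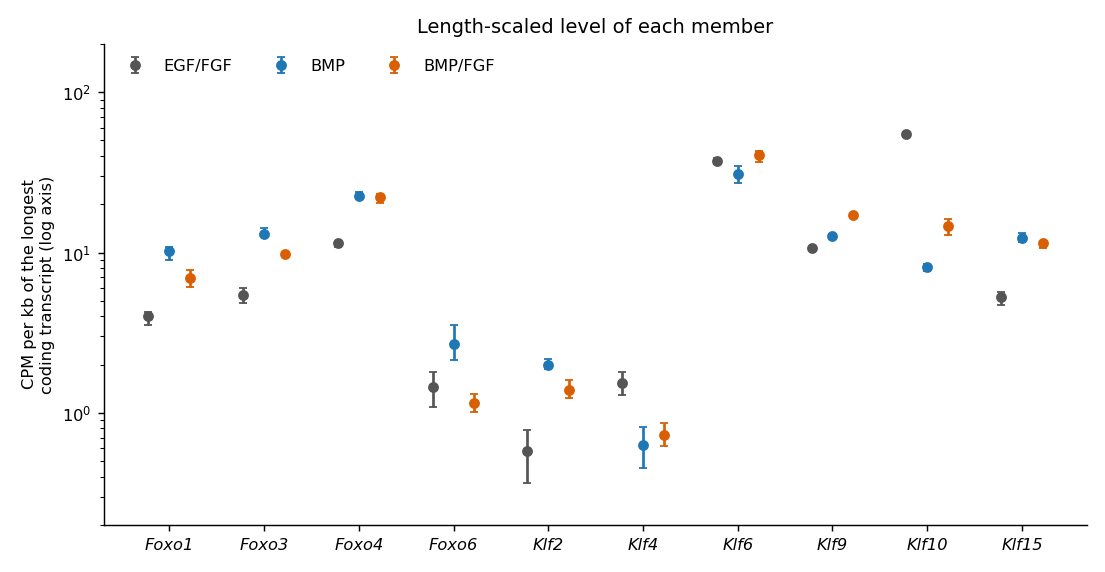
Mean level per kb of the longest coding transcript for each member (log axis), with bars from the lowest to the highest of 4 libraries, by condition. Klf10 leads in EGF/FGF at 54.5 CPM per kb and drops to 8.07 in BMP, while Klf6 and Foxo4 lead in both quiescent conditions.

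Whether the lines responded alike was tested as the difference of their log2 fold changes, BL6 minus ANS4. It was called for 2 of 10 members in BMP against EGF/FGF (9.02% of all tested genes), 0 of 10 in BMP/FGF against EGF/FGF (4.98%) and 1 of 10 in BMP/FGF against BMP (13.5%). Foxo1 fell by 0.80 on the log2 scale (SE 0.0736) from BMP to BMP/FGF in ANS4 and by 0.32 (SE 0.0728) in BL6. The difference was 0.49 ± 0.103 (FDR 0.00507, edgeR interaction), and it was called in all 19 alternatives (0.41 to 0.57, FDR 0.000642 to 0.0338). In CPM, the ANS4 libraries lay above the BL6 libraries in BMP (93.1 to 93.7 against 78.3 to 87.5) and below them in BMP/FGF (52.7 to 54.5 against 66.2 to 67.0).

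Foxo1 also rose more in ANS4 than in BL6 from EGF/FGF to BMP (log2 1.52 ± 0.0767 against 1.17 ± 0.0758 SE). That difference, -0.35 ± 0.108, had an FDR of 0.04998 and was called in only 3 of 19 alternatives (FDR 0.00963 to 0.215). Klf6 fell by 0.44 (SE 0.066) in ANS4 and by 0.11 (SE 0.0652) in BL6 from EGF/FGF to BMP, a difference of 0.33 ± 0.0927 (FDR 0.0364) that was called in 7 of 19 alternatives (FDR 0.0192 to 0.151). Foxo3 had a difference of similar size in the same contrast, with 1.09 in ANS4 and 1.43 in BL6, but the difference of 0.34 ± 0.106 was not called (FDR 0.0542). It was called without BL6 BMP replicate 2 (0.43, FDR 0.00613) and with library size only (0.37, FDR 0.0344), a scaling under which Foxo1 lost its call (FDR 0.0724), and the Foxo3 difference in BMP/FGF against EGF/FGF was called without either BL6 BMP library (0.29, FDR 0.038) and with the 8 libraries compared (0.29, FDR 0.039). For Foxo6 the fall from BMP to BMP/FGF was 0.86 in ANS4 and 1.53 in BL6 (as sizes, both falls), and the difference of -0.68 ± 0.276 was not called (FDR 0.114), except without BL6 BMP replicate 1 (-0.84, FDR 0.0368).

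**Figure D4:**
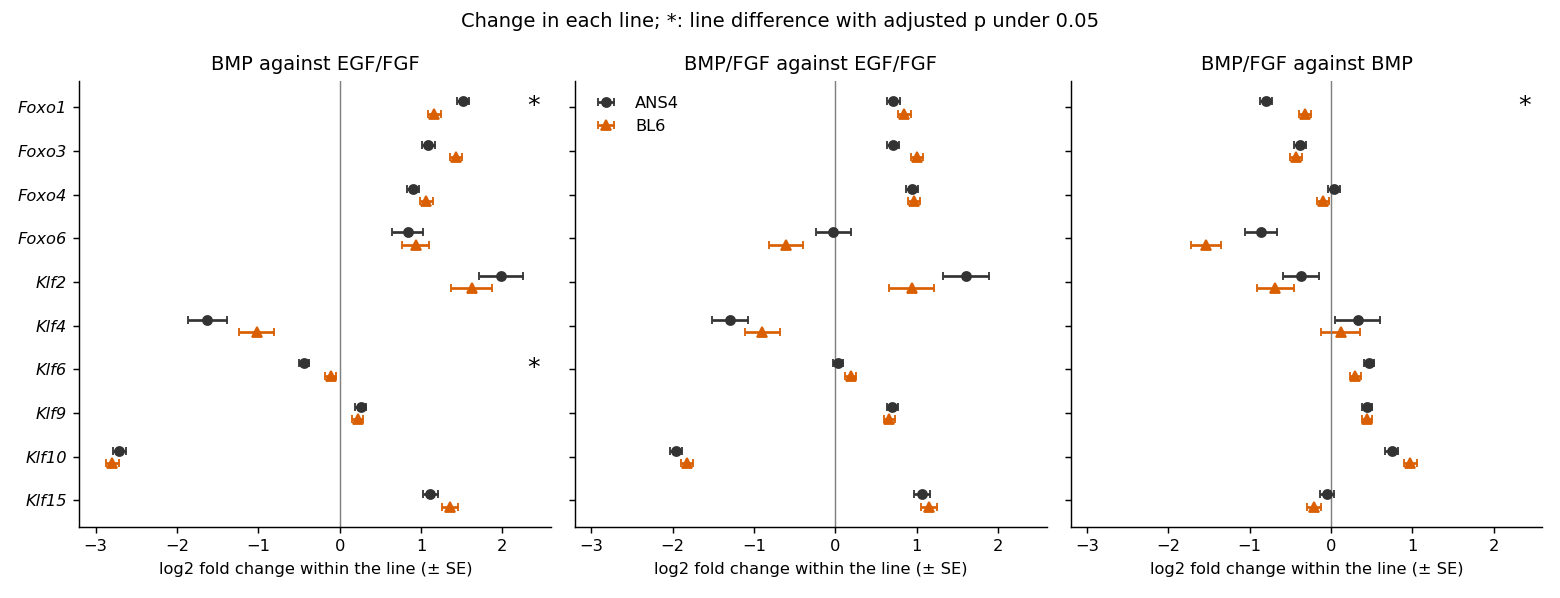
Log2 fold change of each member within the ANS4 line (circles) and the BL6 line (triangles), with SE bars, in the 3 contrasts, and an asterisk where the line difference has an adjusted p under 0.05. Foxo1 and Klf6 carry the asterisk in BMP against EGF/FGF and Foxo1 in BMP/FGF against BMP, where ANS4 stands at -0.80 and BL6 at -0.32.

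The genes around the members were taken as lists, described by counts and by their median. The counts of every list below stand against these shares of all tested genes. In BMP against EGF/FGF 40.8% were called higher and 38.8% lower. In BMP/FGF the shares were 40.9% and 38.0% against EGF/FGF and 20.1% and 21.3% against BMP. In the PI3K and AKT pathway, which inactivates Foxo proteins, 26 of 26 genes were tested. From BMP to BMP/FGF 16 fell and 1 rose, against 21.3% of all genes lower and 20.1% higher, with a median log2 fold change of -0.24. The fall of largest size was in Pik3cd, a PI3K catalytic subunit (-0.84 ± 0.247 SE, FDR 0.0113, 1.86 to 1.02 CPM), and the rise was in Sgk3, a kinase related to AKT (0.19 ± 0.0702, FDR 0.0363). Against EGF/FGF, 14 rose and 7 fell in BMP (median 0.16), and 8 rose and 11 fell in BMP/FGF (median -0.12). Phlpp1, a phosphatase that removes phosphate from AKT, went from 145 ± 8.82 CPM (SD) in EGF/FGF to 358 ± 12.4 in BMP (log2 1.30, FDR 7.48e-12, edgeR) and 313 ± 28.2 in BMP/FGF (1.11, FDR 7.36e-11). Sgk1, a kinase that phosphorylates Foxo3, went from 114 ± 12.7 CPM to 48.7 ± 10.3 in BMP (-1.23, FDR 1.58e-11) and 34.8 ± 2.52 in BMP/FGF (-1.71, FDR 2.61e-13).

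Of the regulators that act on Foxo proteins themselves, 21 of 22 in the table were tested. In BMP 6 rose and 13 fell (median -0.25), in BMP/FGF 3 rose and 12 fell against EGF/FGF (median -0.21), and between the quiescent conditions 4 rose and 5 fell (median -0.12). Skp2, the ubiquitin ligase subunit that marks Foxo1 for degradation and also p27, had the fall of largest size, from 52.7 ± 4.62 CPM to 13.4 ± 0.44 in BMP (log2 -1.98 ± 0.0867 SE, FDR 5.34e-13, edgeR) and 12 ± 1.23 in BMP/FGF (-2.14 ± 0.088, FDR 2.23e-13). Ppargc1a, a coactivator that works with Foxo1, rose in BMP (1.20 ± 0.0653, FDR 1.04e-11), and the acetyltransferase gene Kat2b rose in BMP/FGF (1.08 ± 0.0642, FDR 3.68e-11). From BMP to BMP/FGF the acetyltransferase gene Crebbp fell (-0.50 ± 0.0779, FDR 7.15e-05) and Ywhaq, which encodes a 14-3-3 protein, rose (0.30 ± 0.0572, FDR 0.000493). Against EGF/FGF, Ywhaq was lower in BMP (-0.51, FDR 1.97e-07) and in BMP/FGF (-0.21, FDR 0.00236). The other tested 14-3-3 genes, Ywhab, Ywhae, Ywhag, Ywhah and Ywhaz, were also called lower in BMP than in EGF/FGF, from -0.13 (Ywhag) to -1.49 (Ywhah).

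Known Foxo target genes were mostly higher in quiescent cultures. Of 26 tested (32 in the table), 18 rose and 4 fell in BMP against EGF/FGF, and 18 rose and 5 fell in BMP/FGF, where 40.9% of all genes rose and 38.0% fell. The list's median log2 fold change was 0.82 and 0.63. Pdk4, a kinase that limits glucose oxidation and a Foxo-induced gene, rose from 2.15 ± 0.333 CPM to 23.9 ± 1.89 in BMP (log2 3.47 ± 0.109 SE, FDR 6.87e-15, edgeR) and 21.1 ± 1.45 in BMP/FGF (3.29 ± 0.11, FDR 1.47e-14). Ccnd1, encoding cyclin D1, which Foxo factors repress, fell from 3120 ± 58.5 CPM to 84.6 ± 26.8 in BMP (-5.24 ± 0.14, FDR 9.38e-16) and 140 ± 9.53 in BMP/FGF (-4.49 ± 0.134, FDR 3.9e-15). The 3 other genes that fell in BMP, named because the count is small, were Cdkn1a, a Foxo-induced cell cycle inhibitor, Ccnd2, a further Foxo-repressed cyclin, and Irs2, an insulin receptor substrate. Cdkn1a measured 304 CPM in EGF/FGF, 72.7 in BMP and 138 in BMP/FGF.

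Between BMP and BMP/FGF the target list was nearly level, with 4 higher, 5 lower and 17 not called (median -0.0224), while Foxo1, Foxo3 and Foxo6 were lower in BMP/FGF. Cdkn1a had the rise of largest size there (log2 0.93 ± 0.0765 SE, FDR 6.6e-08, edgeR) and Ccnd2 the fall, from 653 ± 125 to 286 ± 7.26 CPM (-1.18 ± 0.0801, FDR 6.9e-09). Proliferation markers stood beside these changes, with all 6 in the table and a summed level between 2330 and 2780 CPM in EGF/FGF, between 396 and 579 in BMP and between 285 and 302 in BMP/FGF. Their part in the Foxo and Klf levels was not tested.

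Among other forkhead genes 14 of 25 in the table were tested, and 8 rose and 5 fell in BMP as well as in BMP/FGF against EGF/FGF. Foxj1, the driver of motile cilia and also one of the ependymal markers, rose from 59.7 ± 8 to 194 ± 16.6 CPM in BMP (log2 1.71 ± 0.0761 SE, FDR 6.67e-13, edgeR) and to 181 ± 3.64 CPM in BMP/FGF (1.61 ± 0.076, FDR 1.5e-12). Foxm1, the forkhead factor of dividing cells, which Foxo3 is known to oppose, fell from 143 ± 15.6 to 34.1 ± 7.97 CPM in BMP (-2.07 ± 0.113, FDR 9.81e-12) and 14.8 ± 1.79 CPM in BMP/FGF (-3.26 ± 0.122, FDR 6.48e-14). Between BMP/FGF and BMP 0 of the 14 rose and 5 fell, Foxm1 with the largest size (-1.19 ± 0.124, FDR 9.7e-07).

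Of the Klf genes outside the members 8 of 10 were tested. In BMP 3 rose and 2 fell against EGF/FGF (median 0.18), in BMP/FGF 1 rose and 3 fell (median 0.0136), and between the quiescent conditions 1 rose and 4 fell (median -0.35). Klf11, the closest relative of Klf10 and like it known as a TGF-beta-induced early gene, rose from 6.72 ± 1.23 to 35.1 ± 3.47 CPM in BMP (log2 2.38 ± 0.113 SE, FDR 1.58e-12, edgeR) and to 27.3 ± 1.66 in BMP/FGF (2.02 ± 0.114, FDR 1.84e-11), where Klf10 fell. Klf3, a repressor, fell in BMP (-0.92 ± 0.057, FDR 5.62e-11) and was partly higher again in BMP/FGF than in BMP (0.29 ± 0.0573, FDR 0.000687). Klf5 was lower in BMP/FGF than in EGF/FGF (-0.76 ± 0.206, FDR 0.00281) and than in BMP (-0.77 ± 0.207, FDR 0.00628).

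The ERK5 and MEF2 pathway, the known route to Klf2 and Klf4 in endothelium, had 12 of 12 genes tested. In BMP 3 rose and 5 fell (median -0.0463), in BMP/FGF 2 rose and 7 fell against EGF/FGF (median -0.31), and from BMP to BMP/FGF 1 rose and 4 fell (median -0.15). Map2k5, the kinase that activates ERK5, rose in BMP (log2 0.51 ± 0.0694 SE, FDR 2.39e-06, edgeR), and Hdac7, a deacetylase that represses MEF2 targets, fell in BMP (-0.54 ± 0.0835, FDR 1.09e-05) and BMP/FGF (-0.58 ± 0.0838, FDR 5.2e-06). Mef2b was low throughout, with means under 1 CPM in EGF/FGF, 1.04 ± 0.44 CPM in BMP and 2.26 ± 0.519 CPM in BMP/FGF, and was called higher in BMP/FGF than in EGF/FGF (1.45, FDR 0.000163) and than in BMP (1.12, FDR 0.00365). The kinase gene Map3k2, upstream of Map2k5, fell from BMP to BMP/FGF (-0.38 ± 0.0952, FDR 0.00437).

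Steroid and thyroid hormone genes stand upstream of or beside Klf9 and Klf15. Of 12 tested, 9 rose and 2 fell in BMP against EGF/FGF (median 0.83), where 40.8% of all genes rose and 38.8% fell. The counts were equal in BMP/FGF against EGF/FGF (median 0.86), where 40.9% of all genes rose and 38.0% fell. Hr, a thyroid hormone-induced corepressor, rose from 3.4 ± 0.736 to 19.8 ± 3.49 CPM in BMP (log2 2.53 ± 0.141 SE, FDR 1.36e-11, edgeR) and to 20.2 ± 0.642 in BMP/FGF (2.57 ± 0.141, FDR 1.15e-11). Fkbp5, a glucocorticoid-induced gene, fell from 99.9 ± 2.05 to 30.4 ± 2.09 CPM in BMP (-1.72 ± 0.0708, FDR 2.31e-13). From BMP to BMP/FGF, 4 rose and 5 fell (median -0.00686), with Dio2, which makes active thyroid hormone, from 40.6 ± 12.9 to 69.5 ± 2.08 CPM (0.81 ± 0.129, FDR 9.46e-05) and Zbtb16 from 11.1 ± 2.61 to 7.55 ± 1.03 CPM (-0.55 ± 0.136, FDR 0.00387). Klf9 also rose between these conditions and Klf15 was not called.

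**Figure D5:**
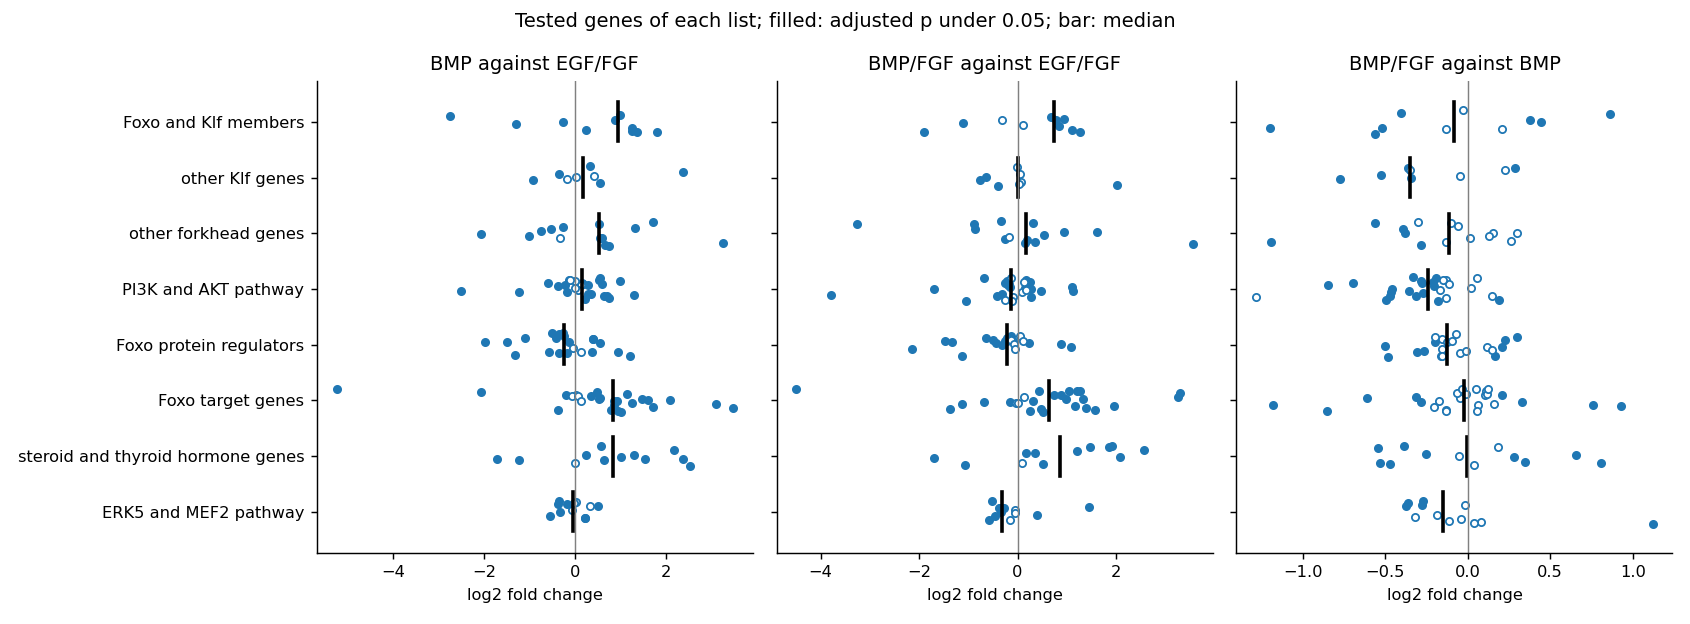
Log2 fold change of every tested gene of the members and of each list in the 3 contrasts (linear axes of different width), filled where the adjusted p is under 0.05, with a bar at the list's median. The Foxo target list has medians of 0.82 and 0.63 in the contrasts with EGF/FGF and of -0.0224 in BMP/FGF against BMP, where most PI3K and AKT genes lie below 0.

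For each member the 2 genes with the most similar pattern were found by Pearson's r of log2 CPM over the 12 libraries, among the 12456 tested genes whose mean reached 1 CPM. The libraries fall into 3 conditions, so a high r mainly says that 2 genes share the order of the conditions, and many genes do. Klf10 was most like Dusp6 (r = 0.999) and Adamts14 (0.997), and Klf15 was most like Atoh8 (0.997) and Pisd (0.996). Foxo4 was nearest Osbpl1a (0.995) and Tmcc3 (0.994), Foxo3 nearest Tmem132b (0.994) and Cntf (0.993), and Foxo1 nearest Sema4d (0.992) and Map1a (0.991). An r above 0.95 was reached by 1530 genes with Klf15, 1471 with Foxo4, 852 with Foxo3, 837 with Klf10 and 249 with Foxo1.

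Fewer genes passed 0.95 with the other 5. Low counts can also lower r, and Klf2, Klf4 and Foxo6 rest on 13 to 178 counts a library. The part of depth in these numbers was not tested. Klf9 was nearest Appl2 and Phka1 (both 0.986), with 53 genes above 0.95, and Klf2 nearest Abhd14b (0.983) and Nmb (0.981), with 114. Klf4 was nearest Rasl11a (0.969) and Xylt1 (0.964), with 25 genes above 0.95, and Foxo6 nearest Nova2 and Zfp609 (both 0.967), with 7. For Klf6 the nearest were Cd44 (0.904) and Rnf19b (0.892), and 0 genes passed 0.95.

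The cultures carried NSC markers in all conditions, with 8 of 8 listed markers in the table and summed levels between 7240 and 7850 CPM in EGF/FGF, between 9380 and 10600 in BMP and between 12400 and 12800 in BMP/FGF. The higher sums came mainly from Vim, Slc1a3 and Gfap, whereas Nes (means of 569, 126 and 115 CPM in EGF/FGF, BMP and BMP/FGF), Hes1 (49.3, 19 and 20.4) and Fabp7 (2410, 475 and 1390) were lower in both quiescent conditions than in EGF/FGF. Ependymal markers, with 3 of 4 in the table, summed to 51.9 to 69.4, 175 to 210 and 177 to 186 CPM in EGF/FGF, BMP and BMP/FGF, nearly all Foxj1. Microglial markers (5 of 9 in the table) summed to 5.31 to 14.7 CPM and mural or fibroblast markers (5 of 6) to 4.99 to 13.6 CPM over all libraries. The part of these lists in the members' levels was not tested. The BL6 BMP replicates differed from each other more than other replicate pairs did, with a chi-square per gene of 12.4 against 2.14 to 4.76, and leaving out either of them changed no member's call between conditions apart from that of Klf2 given above.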

How the data were processed

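The authors trimmed reads of low-input BGISEQ-500RS libraries with Trim Galore 0.5.0, estimated transcript abundance in mm10 with kallisto 0.44.0 and summed it per gene with tximport. They deposited estimated counts as whole numbers. A second deposited table, of rlog values on a log2 scale from DESeq2 1.27.32, served only as an alternative. All 12 count columns matched a sample by condition, line and replicate. Kallisto divides reads shared by similar transcripts by estimate, which could affect related genes.

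From the counts, genes were kept by edgeR's filterByExpr by condition (13312 of 17365), scaled by TMM (factors 0.972 to 1.03) and fitted by edgeR 4.0.16 (glmQLFit, glmQLFTest, two-sided) on all 12 libraries with condition and line as terms. Line differences came from a fit of 6 group means. P-values were adjusted over the whole tested table (Benjamini-Hochberg), with 0.05 as threshold. Log2 CPM used a prior count of 2, and the exact permutation tests used CPM with 0.1 added. DESeq2 1.42.0 and limma 3.58.1 ran in R 4.3.3 as alternatives, and sequences, positions and figures used Python 3.11.15, pandas 2.3.3 and matplotlib 3.10.9.

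Genes named beside the members are, in each list and contrast, the called gene of at least 1 CPM with the largest rise and with the largest fall, and the 2 genes most correlated with each member. Members and lists were chosen with earlier results of these data known. The labels speak of biological replicates but do not say that these were separate isolations, so p-values measure the spread between these cultures. The intervals are 95%. Alternatives were DESeq2 size factors, library size only, no filter, no line term, a replicate block, the 8 libraries compared, each line alone, each library left out, DESeq2's Wald test and limma-trend on the rlog values. The values of 1 list of cell type markers are not reported here.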

Additional observations from a re-analysis of the deposited data

Results flagged for a closer look

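The level of Foxo3 in BMP had 1 library far from the other 3 of its condition. BL6 BMP replicate 1 measured 97.8 CPM against 85.7 to 87.4 CPM in the others, a gap of 0.859 of the whole range, past Dixon's 95% limit for 4 values. It was the only such library among the 30 member and condition groups examined. Chance alone marks about 1 in 20 groups of 4 like values. Each group here holds 2 libraries of each line, so that rate need not hold for these groups.

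For 3 results the change differed between the lines by the interaction test. Foxo1 differed by -0.35 on the log2 scale (BL6 minus ANS4) in BMP against EGF/FGF, and by 0.486 in BMP/FGF against BMP. Klf6 differed by 0.327 in BMP against EGF/FGF. Their adjusted p values and their range under other settings stand with the line comparison, and no cause of these differences was tested.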

How the results depend on the processing

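Each contrast was recomputed under 22 alternatives and each line difference under up to 19. The number of members called stayed between 9 and 10 in BMP against EGF/FGF, 8 and 10 in BMP/FGF against EGF/FGF, and 6 and 7 in BMP/FGF against BMP. Line differences were less stable. In BMP against EGF/FGF their count of 2 became 0 without the filter, with the 8 libraries compared and with limma-trend, 1 with DESeq2's Wald test, and 0 to 3 with 1 library left out. In BMP/FGF against EGF/FGF the count of 0 became 1 with the 8 libraries compared and ranged from 0 to 1 with 1 library left out (1 without either BL6 BMP library), and in BMP/FGF against BMP it ranged from 1 to 2 (2 without BL6 BMP replicate 1).

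With replicate number as a block the line differences in BMP against EGF/FGF numbered 1, and no other count of members changed by more than 1.5 times. The numbers do not pair the samples, since same-numbered samples deviated together with correlations of only -0.0711 to 0.0529.

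Values that changed sign were small and not called in any of these settings. Foxo4 in BMP/FGF against BMP was 0.0383 in ANS4 alone and -0.0699 to 0.00762 with 1 library left out. The line difference of Foxo4 in BMP/FGF against EGF/FGF was -0.0169 with library size only, -0.0858 with limma-trend and -0.0831 to 0.123 with 1 left out. That of Klf9 in BMP/FGF against BMP was 0.00604 with DESeq2 size factors and with DESeq2's Wald test, 0.0127 with limma-trend and -0.0453 to 0.0518 with 1 left out. With 1 left out, line differences also crossed 0 for Foxo6 (-0.0901 to 0.264) and Klf9 (-0.0921 to 0.00592) in BMP against EGF/FGF, Klf15 in BMP/FGF against EGF/FGF (-0.00658 to 0.171) and Foxo3 in BMP/FGF against BMP (-0.136 to 0.0553). The cause of these changes was not tested. Depth limits Klf2, Klf4 and Foxo6 most, with 13 to 178 counts a library.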
